A study of Mus musculus with 8 samples.

Results

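The 36 genes described here are 25 immediate early genes and 11 heat shock genes, taken by symbol from a list; all 36 were found among the 51810 genes of the count table, and all 36 passed the filter on low counts. They were measured in microglia of wild-type mice, drawn from brain suspensions with magnetic CD11b beads; CD11b is an integrin on the surface of microglia and of other myeloid cells. The 8 libraries of polyadenylated RNA form 4 groups of 2 by region and age: white matter at 21 months, grey matter at 21 months, white matter at 4 months and grey matter at 4 months. In all groups the tissue was brought into suspension with a neural tissue dissection kit, myelin was taken off on a Percoll gradient, and the selected cells were frozen as lysates. The sources used here give neither the strain nor the sex of the mice. Grey matter samples, too, carry the region label corpus callosum, so the regions here follow the sample titles and the tissue label. It is not stated whether both libraries of a group came from different animals, so p-values measure only the spread between these samples, and that spread may be technical.

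Immediate early genes are switched on within minutes of a stimulus by factors that are already present in the cell, without new protein synthesis. Many of them encode transcription factors of the AP-1, Egr and Klf families, and others encode phosphatases and RNA-binding proteins that shut the signal off again. Heat shock genes encode chaperones that refold proteins, and the factor Hsf1 induces them through the heat shock element when unfolded proteins build up. Both kinds are known to be induced in microglia while brain tissue is dissociated, and also by inflammatory stimuli in the living animal, so a level in isolated cells can hold both.

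The members took a large share of the RNA. They made up 4.35% and 4.16% of all counts in white matter at 21 months, 4.52% and 4.04% in grey matter at 21 months, 1.15% and 4.53% in white matter at 4 months, and 4.71% and 4.61% in grey matter at 4 months. In 7 of the 8 libraries the share thus lay between 4.04% and 4.71%, and the first 4-month white matter library was far below them. Levels below are in CPM, a gene's share of the counts of its library after TMM scaling, which adjusts for composition.

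The library with the low share stood apart in other ways. Library totals ran from 3273258 to 6315782 counts. In the first 4-month white matter library the 16 oligodendrocyte markers summed to 78060 CPM with none at 0, against 544.7 to 3394 CPM in the other 7 libraries with at most 1 at 0. Its 12 microglia markers summed to 3485 CPM, against 13620 to 20960 CPM in the others, and none of them was at 0 in any library. A pair of transcripts made up 38.8% of all counts there, against 6.78% to 20.7% elsewhere. The 10 neuron markers summed to at most 50.8 CPM in any library. In bulk RNA of this kind, fewer cells of a type and less RNA per cell cannot be told apart.

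**Figure D1:**
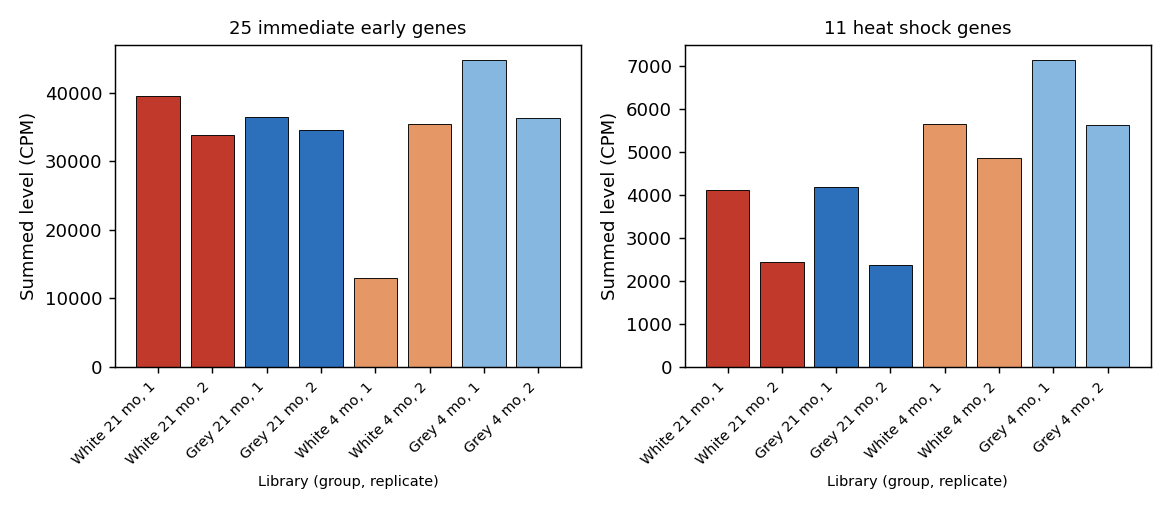
Summed level in CPM of the 25 immediate early genes (left) and the 11 heat shock genes (right) in each of the 8 libraries; each bar is 1 library, named by group and replicate. The immediate early sum was 13000 CPM in the first 4-month white matter library and 33780 to 44800 CPM in the other 7, while the heat shock sum was lowest in the second library of each 21-month group, at 2449 and 2361 CPM.

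The immediate early genes as a whole differed mainly in that 1 library. Added up, their levels came to 39560 and 33780 CPM in white matter, against 36540 and 34530 CPM in grey matter at 21 months. At 4 months the sums were 13000 and 35470 CPM in white matter, against 44800 and 36370 CPM in grey matter. The myelin-rich 4-month white matter library was the lowest of the 8 for 22 of the 25 immediate early genes. For the 11 heat shock genes it was the lowest for 1 and the highest for 2. Results that rest on this library are given with and without it.

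Compared per length, the most abundant members were among the most abundant genes of these cells. The values here are levels in CPM per kilobase of merged exons (GENCODE M21 lengths), averaged over the 7 libraries other than the myelin-rich one and ranked among 16614 genes. Zfp36, which encodes tristetraprolin, a protein that destabilises messenger RNAs of cytokines such as Tnf, stood at 2606 CPM per kilobase and rank 9. Egr1, a zinc finger factor, followed at 1740 and rank 17, Jun at 1078 and rank 28, and Dusp1, a phosphatase that inactivates MAP kinases, at 983.9 and rank 32. Atf3, a stress-induced AP-1 partner, and Fos had 648.4 and 643.0 CPM per kilobase. The most abundant chaperone was Hsp90ab1, the constitutive Hsp90 of the cytosol, at 324.6 CPM per kilobase and rank 99. At the other end, Egr3 had 1.46 CPM per kilobase and rank 12371.

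**Figure D2:**
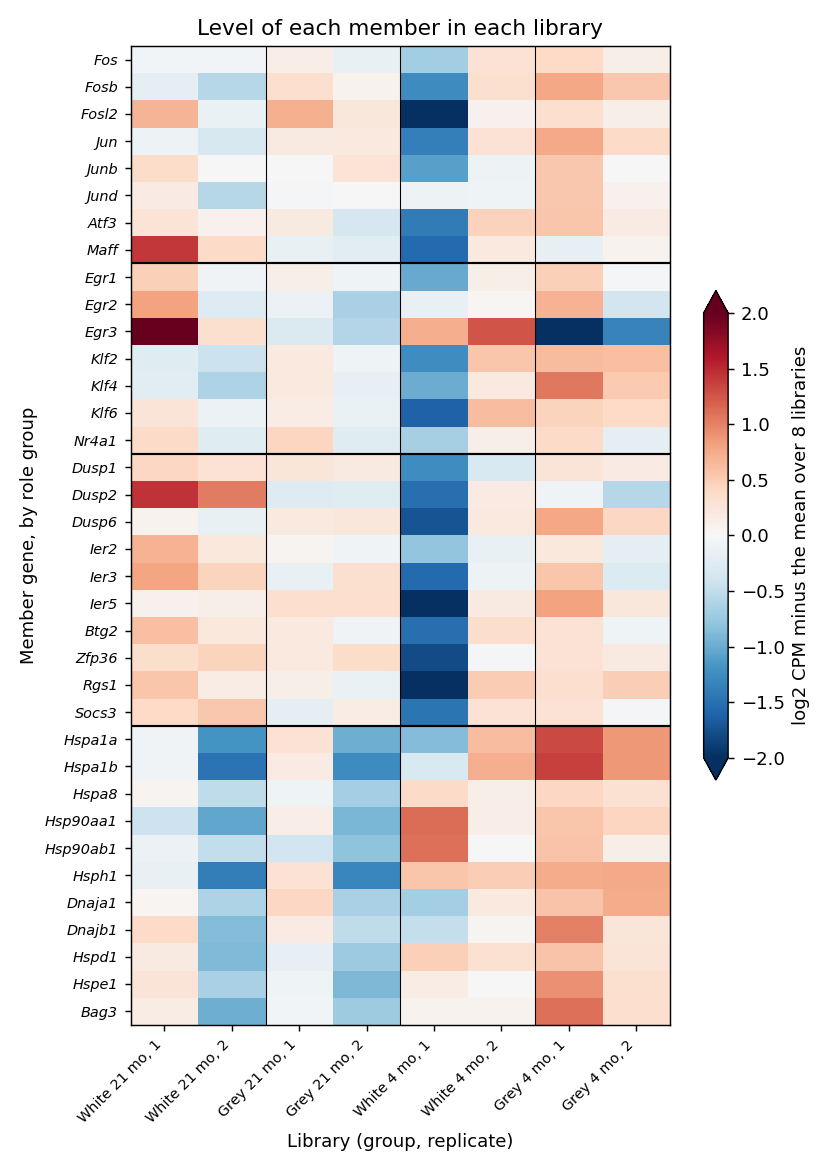
Level of each of the 36 members (rows, by role: AP-1 family, Egr, Klf and Nr4a factors, feedback regulators, heat shock chaperones) in each of the 8 libraries (columns), as log2 CPM minus the mean of that gene over the 8 libraries; red is above and blue below the mean, and colours end at -2 and 2. The column of the first 4-month white matter library is blue for most immediate early genes, and the heat shock rows are red in 4-month grey matter and blue in the second library of each 21-month group.

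The promoters of a few members show the elements through which such genes are known to be switched on. The windows are the 250 bases before the gene's start in RefSeq's GRCm38.p6 table, 5′ to 3′ on the gene's own strand; 29 of the 36 members had one. The inducible Hsp70 genes Hspa1a (chr17:34972157-34972406, minus strand) and Hspa1b (chr17:34959239-34959488, minus strand) are shown together as near-identical copies. Capitals mark a heat shock element of 2 units, GAANNTTC.
Hspa1a: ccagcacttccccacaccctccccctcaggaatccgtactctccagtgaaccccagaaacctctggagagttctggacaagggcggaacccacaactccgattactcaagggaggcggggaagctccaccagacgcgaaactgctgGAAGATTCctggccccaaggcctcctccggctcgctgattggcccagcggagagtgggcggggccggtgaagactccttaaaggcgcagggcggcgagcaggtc
Hspa1b: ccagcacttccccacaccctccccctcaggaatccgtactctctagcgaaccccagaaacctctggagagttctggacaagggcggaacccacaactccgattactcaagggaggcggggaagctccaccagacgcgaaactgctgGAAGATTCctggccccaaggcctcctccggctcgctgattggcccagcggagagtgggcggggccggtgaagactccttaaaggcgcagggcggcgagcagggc
The promoters of this pair were the same at 247 of 250 bases. This compares the windows before the gene's start, not the transcripts that give the reads. Reads cannot be told apart where transcripts are alike. How the authors' counting split reads between the genes is not known, so each gene's own level is uncertain. Hspe1, which encodes the mitochondrial co-chaperonin, is shown because it holds the longer element of 3 units, GAANNTTCNNGAA (chr1:55087898-55088147, plus strand); capitals mark a pair of overlapping matches.
Hspe1: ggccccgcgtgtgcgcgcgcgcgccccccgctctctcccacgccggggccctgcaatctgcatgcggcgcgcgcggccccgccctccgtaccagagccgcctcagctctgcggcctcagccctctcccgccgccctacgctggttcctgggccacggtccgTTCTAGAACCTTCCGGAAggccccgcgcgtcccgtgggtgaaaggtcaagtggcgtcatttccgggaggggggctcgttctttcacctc
Its neighbour Hspd1, the mitochondrial chaperonin, is read in the opposite direction, and a window of it holds the same element.

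Searched on both strands, the element of 3 units was found in 0.466% of all 32851 promoter windows and in 2 of the 29 members with a window, Hspd1 and Hspe1. Each such match also counts as a match to 2 units, which 6.69% of all windows held; 7 members did, namely Fosl2, Jun, Hspa1a, Hspa1b, Dnaja1, Hspd1 and Hspe1. Among the immediate early genes, 3 promoters are shown because their genes lead the results below. Capitals mark the CArG box, the serum response factor's site, in Zfp36 (chr7:28379229-28379478, minus strand), the cyclic AMP response element TGACGTCA in Dusp1 (chr17:26508473-26508722, minus strand), and an Egr site, GCGGGGGCG, in Dusp2 (chr2:127335909-127336158, plus strand).
Zfp36: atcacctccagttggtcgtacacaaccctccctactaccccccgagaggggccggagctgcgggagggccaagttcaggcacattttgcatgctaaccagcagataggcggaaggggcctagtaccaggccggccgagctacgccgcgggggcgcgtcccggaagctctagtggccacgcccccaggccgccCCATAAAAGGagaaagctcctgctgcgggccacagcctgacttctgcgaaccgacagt
Dusp1: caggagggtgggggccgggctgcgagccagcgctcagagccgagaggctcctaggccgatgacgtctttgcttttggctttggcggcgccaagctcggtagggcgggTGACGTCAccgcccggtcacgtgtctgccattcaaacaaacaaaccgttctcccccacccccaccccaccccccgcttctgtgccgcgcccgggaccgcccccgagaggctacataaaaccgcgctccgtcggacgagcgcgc
Dusp2: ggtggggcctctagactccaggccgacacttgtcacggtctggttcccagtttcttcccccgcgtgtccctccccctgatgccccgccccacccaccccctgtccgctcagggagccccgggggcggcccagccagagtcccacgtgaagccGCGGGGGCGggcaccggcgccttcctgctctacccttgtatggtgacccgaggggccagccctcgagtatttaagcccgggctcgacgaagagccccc
The CArG box was in 1.47% of all windows and in those of 2 members, Egr2 and Zfp36. The cyclic AMP response element was in 1.55% of all windows and in those of 3 members, Maff, Dusp1 and Btg2. The Egr site was in 2.57% of all windows and in those of 9 members. These were Fosb, Fosl2, Klf2, Klf4, Nr4a1, Dusp2, Zfp36, Socs3 and Dnaja1. In the Zfp36 window above it is not marked. The AP-1 site TGANTCA was in 6.75% of all windows and in that of 1 member, Bag3. A share counts single windows, while a member was counted if any of its windows matched, so the share is no expected rate for members. A match describes these letters only.

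White matter was compared with grey matter at 21 months, first with the 4 libraries of that age alone. The feedback genes leaned towards white matter: 8 of 10 had a log2 fold change above 0 (median 0.35), against 3 of 8 in the AP-1 family (median -0.11) and 4 of 7 among the Egr, Klf and Nr4a factors (median 0.07). The median of all 14717 genes tested was 0.01. In edgeR's quasi-likelihood test with Benjamini-Hochberg adjustment, 232 genes passed an adjusted p of 0.05 (1.58%), and 1 of the 36 members did, Dusp2. A further 8 members had an unadjusted p under 0.05, making 9 of 36, beside 11.4% of all genes.

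Dusp2, a nuclear phosphatase of MAP kinases found mainly in immune cells, had 36.7 and 27.8 CPM in 21-month white matter, against 11.3 and 11.4 CPM in 21-month grey matter. Both white matter libraries were above both grey matter ones, and Dusp2 rose by a log2 fold change of 1.49 ± 0.28 (SE; adjusted p = 0.0255 in edgeR's quasi-likelihood test). DESeq2 called 313 genes (2.13%) and 2 members, Maff and Dusp2, the second at an adjusted p of 0.00992. The call was lost without the first white matter library (adjusted p = 0.0693 in edgeR), without the first grey matter library (0.227) and without the second (0.125), where the lone library was assumed to vary like the other group's, and with limma-voom it was missed at 0.0522. At 4 months the level of Dusp2 was 4.72 and 15.1 CPM in white matter, against 12.9 and 9.14 CPM in grey matter, so that those groups overlapped.

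Maff, a small Maf protein without an activation domain that pairs with other leucine zipper factors, followed Dusp2 in size among the members named by rule. It had 183.1 and 89.7 CPM in 21-month white matter, against 62.0 and 59.5 CPM in 21-month grey matter. The groups did not overlap, but the first white matter library stood far above the second, which was nearer to grey matter. The log2 fold change was 1.16 ± 0.35 (SE), with an adjusted p of 0.275 in edgeR and 0.0125 in DESeq2. Egr2, which is needed for myelin formation by Schwann cells and takes part in macrophage activation, had 294.5 and 140.3 CPM in white matter, against 154.7 and 108.0 CPM in grey matter. These groups overlapped, and its log2 fold change of 0.72 ± 0.44 (SE) did not pass edgeR's test (adjusted p = 0.682). Egr3, singled out after its values were seen, had 18.7 and 5.71 CPM in white matter, against 3.76 and 3.07 CPM in grey matter, with a log2 fold change of 1.81 ± 0.58 and an adjusted p of 0.238 in edgeR.

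**Figure D3:**
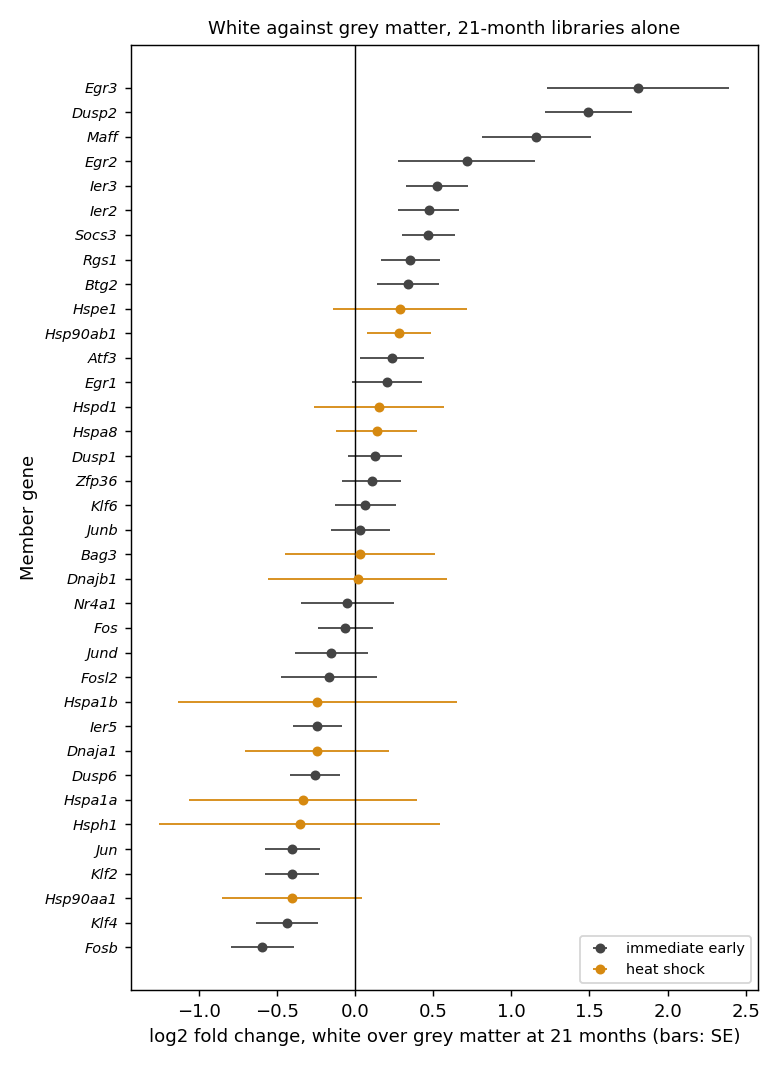
Log2 fold change of each of the 36 members, white matter over grey matter at 21 months, from the 4 libraries of that age alone, sorted by size; points are estimates of edgeR's quasi-likelihood model, bars are SE, and colour separates immediate early from heat shock genes. Dusp2, at 1.49, is the only member that passed the test; Fosb is the lowest, at -0.59, and the bars of Hspa1a, Hspa1b and Hsph1 are among the widest.

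Of the other feedback genes, Ier3, an early response gene that restrains NF-kB signalling, had 365.9 and 289.8 CPM in 21-month white matter, against 190.7 and 264.0 CPM in grey matter. Socs3, the inhibitor of cytokine receptors that signal through Stat3, had 308.4 and 339.7 CPM in white matter, against 207.2 and 258.2 CPM in grey matter. In both genes each white matter library was above each grey matter library, with log2 fold changes of 0.52 ± 0.20 for Ier3 and 0.47 ± 0.17 for Socs3 and edgeR adjusted p of 0.325 and 0.287. Ier2, a nuclear protein of the early growth response, had 220.7 and 156.7 CPM in white matter, against 141.0 and 129.5 CPM in grey matter, and Rgs1, which dampens signals from chemokine receptors, had 410.4 and 311.2 CPM, against 304.6 and 256.0 CPM. These did not overlap either, and neither passed the test (adjusted p = 0.377 for Ier2 and 0.553 for Rgs1 in edgeR). The gap of Rgs1 was narrow, and with RLE scaling its groups overlapped.

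The most abundant feedback genes lay close together in both regions. Zfp36 had 9669 and 10300 CPM in 21-month white matter, against 8631 and 9800 CPM in 21-month grey matter, and the groups overlapped. Dusp1 had 3809 and 3501 CPM in white matter, against 3390 and 3262 CPM in grey matter, a narrow gap without overlap. Their log2 fold changes were 0.11 ± 0.19 and 0.13 ± 0.18 (SE), smaller than the standard errors.

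Several DNA-binding factors were at lower levels in white matter at 21 months. Fosb, an AP-1 subunit, had 2327 and 1809 CPM in white matter, against 3386 and 2807 CPM in grey matter. Jun, the partner of Fos proteins in AP-1, had 2732 and 2369 CPM in white matter, against 3328 and 3368 CPM in grey matter. Neither pair of groups overlapped, and the log2 fold changes of -0.59 ± 0.20 for Fosb and -0.40 ± 0.18 for Jun had edgeR adjusted p of 0.249 and 0.423. Klf2 and Klf4, Krüppel-like factors that restrain inflammatory gene expression in macrophages and vessels, showed the same order. Klf2 had 178.6 and 156.9 CPM in white matter, against 240.7 and 199.3 CPM in grey matter, and Klf4 had 382.7 and 287.6 CPM, against 507.9 and 391.9 CPM. Their log2 fold changes were -0.40 ± 0.17 and -0.43 ± 0.20 (edgeR adjusted p = 0.404 and 0.465).

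Other abundant factors overlapped between the regions. Egr1 had 9798 and 6702 CPM in 21-month white matter, against 7640 and 6596 CPM in 21-month grey matter. Atf3 had 1456 and 1281 CPM in white matter, against 1361 and 948.4 CPM in grey matter, and Klf6, a Krüppel-like factor induced by injury, had 1364 and 1054 CPM, against 1260 and 1034 CPM. In each of these the first library of either region was above the second library of the other.

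Counted by overlap in all 36 members, 9 immediate early genes had both 21-month white matter libraries above both grey matter ones, as did 20.9% of all 16237 genes: Maff, Egr3, Dusp1, Dusp2, Ier2, Ier3, Btg2, Rgs1 and Socs3. In 6 others both were below, as in 19.5% of all genes: Fosb, Jun, Klf2, Klf4, Dusp6 and Ier5. No heat shock gene fell on either side. The cells of the regions also differed in other markers: the 12 neutrophil markers summed to 997.6 and 556.7 CPM in 21-month white matter (at most 1 at 0), against 2997 and 2705 CPM in grey matter (none at 0), and the 10 markers of choroid plexus and ependyma reached 9407 CPM in the second white matter library, with none at 0, against 267.7 to 362.9 CPM in the other 3 libraries of that age, with 2 to 3 at 0. Csf3r alone gave 674.3 and 473.1 CPM of the neutrophil sums in 21-month white matter, and 651.7 and 720.7 CPM in 21-month grey matter. The part of these markers in these differences was not tested.

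With all 8 libraries in 1 model, edgeR called 0 genes (0%) and 0 members between the regions at 21 months. At an unadjusted p under 0.05 there were 381 genes (2.35%), with 2 members among them, Dusp2 and Egr3. DESeq2 called 54 genes (0.333%) and no member. The standard error of Dusp2 was then 0.57 on the log2 scale, against 0.28 with the 21-month libraries alone, and its edgeR adjusted p was 1.

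The chaperones showed no common direction between white and grey matter at 21 months, but a large spread within each group. Of the 11, 6 were above 0 and 5 below, with a median log2 fold change of 0.02. Without the first white matter library 1 of 11 was above 0, and without the first grey matter library 11 of 11 were. In both 21-month groups the first library had the higher level of all 11 chaperones. The median of the 11 log2 ratios of the first over the second library was 1.07 in 21-month white matter (range 0.37 to 1.40) and 0.80 in 21-month grey matter (0.43 to 1.60), where the medians of all tested genes were -0.01 and -0.02. In 4-month grey matter 9 of 11 were higher in the first library (median 0.45), and in 4-month white matter 7 of 11 (median 0.06). The first library of each group also had the larger total count, 4241439 against 3506342 in 21-month white matter and 4545028 against 3273258 in 21-month grey matter; the part of depth or handling in the spread was not tested.

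The comparison of grey matter at 21 and 4 months gave the most uniform picture for the heat shock genes: for all 11, both 21-month libraries were below both 4-month ones, although none passed the test. The median log2 fold change of the 11 was -0.94, with a range from -1.52 to -0.68, where the median of all 16237 genes was -0.02. Of all genes, 17.3% had both 21-month grey matter libraries below both 4-month ones. At an unadjusted p under 0.05 there were 119 genes (0.733%) and no member in the fit of all 8 libraries, and edgeR and DESeq2 called 0 genes each (0%). Several of these chaperones are known to be induced through Hsf1. In both 21-month groups the first library held the higher level of all 11, so they do not count as 11 separate observations.

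Hspa1a, the inducible Hsp70 of the cytosol, had 714.8 and 297.5 CPM in 21-month grey matter, against 1454 and 1058 CPM in 4-month grey matter. Hspa1b, its near-identical copy, had 256.9 and 95.7 CPM at 21 months, against 592.5 and 418.3 CPM at 4 months. Every 21-month grey matter library was below every 4-month grey matter library in both genes. The log2 fold changes were -1.31 ± 0.71 for Hspa1a and -1.52 ± 0.69 for Hspa1b (adjusted p = 1 for both in edgeR's quasi-likelihood test of all 8 libraries). The values of Hspa1b and the other chaperones outside the naming rule were chosen after they were seen.

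Hsph1, an Hsp110 that exchanges nucleotides on Hsp70, had 280.1 and 92.7 CPM in 21-month grey matter, against 381.1 and 384.5 CPM in 4-month grey matter. The 4-month libraries were nearly equal, and the 21-month ones were far apart below them (log2 fold change -1.04 ± 0.62). Bag3, a co-chaperone of Hsp70 in selective autophagy, had 104.8 and 66.4 CPM at 21 months, against 234.4 and 137.9 CPM at 4 months (-1.12 ± 0.49). Dnajb1, the Hsp40 partner of inducible Hsp70, had 407.6 and 254.6 CPM at 21 months, against 727.1 and 426.6 CPM at 4 months (-0.80 ± 0.57).

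The constitutive Hsp70 and the Hsp90 genes showed the same order. Hspa8, the constitutive Hsp70, had 934.5 and 617.1 CPM in 21-month grey matter, against 1322 and 1222 CPM in 4-month grey matter (log2 fold change -0.71 ± 0.46). Hsp90ab1 had 804.8 and 598.2 CPM at 21 months, against 1550 and 1133 CPM at 4 months (-0.94 ± 0.53). Hsp90aa1, the inducible Hsp90, had 317.9 and 154.6 CPM at 21 months, against 428.2 and 391.4 CPM at 4 months (-0.79 ± 0.53). None of these overlapped between ages, and all had an adjusted p of 1 in edgeR.

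**Figure D4:**
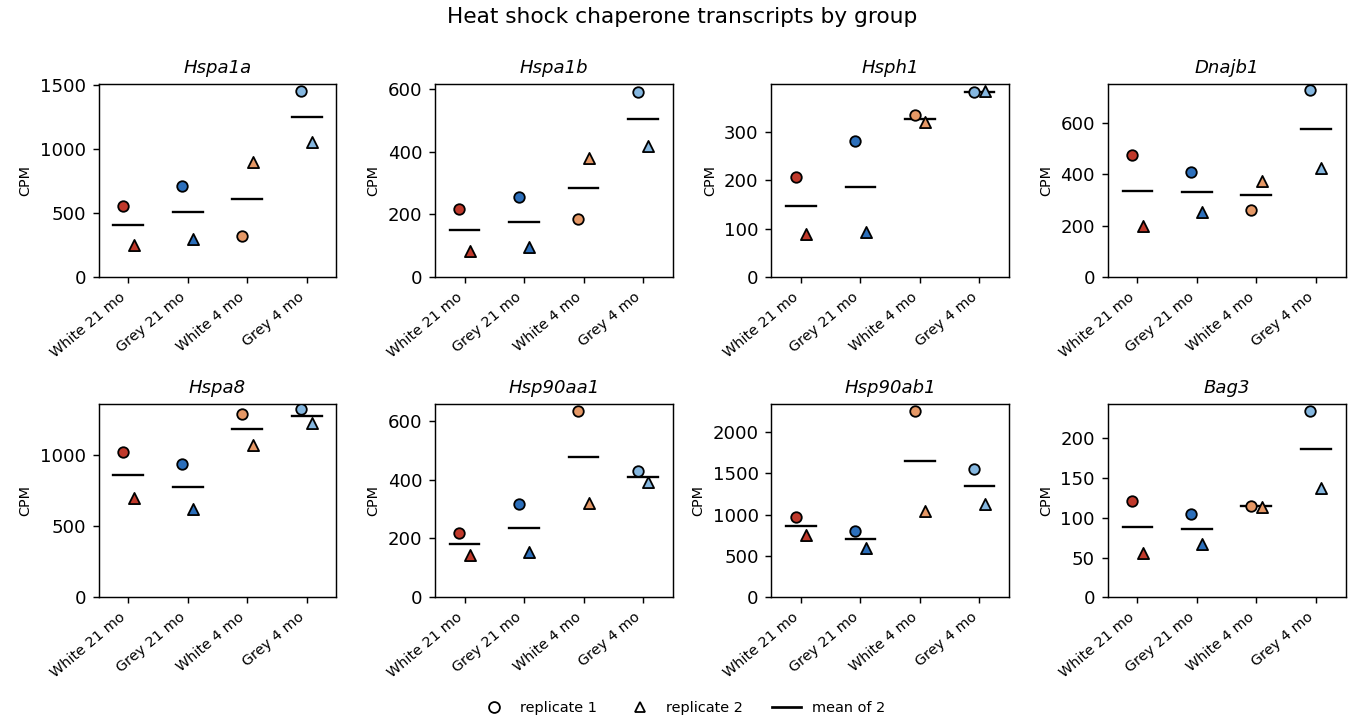
Levels in CPM of 8 heat shock genes in the 4 groups; circles are replicate 1, triangles replicate 2, and the line is the mean of the 2 libraries. In grey matter both 21-month libraries are below both 4-month ones in each panel, as for Hspa1a at 714.8 and 297.5 CPM against 1454 and 1058 CPM, and in both 21-month groups the circle is above the triangle.

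With the 4 grey matter libraries alone, 0 of 15255 genes passed an adjusted p of 0.05 in edgeR (0%), and 419 (2.75%) had an unadjusted p under 0.05. Among the latter were 7 members, all lower at 21 months: Klf4, Hspa1a, Hspa1b, Hsp90ab1, Hspd1, Hspe1 and Bag3. DESeq2 called 2 genes there (0.0131%) and no member. The other chaperones of the cytosol, a list of 33 genes outside the members, had 31 of 33 below 0 (median log2 fold change -0.43) in the fit of all libraries, and the 15 chaperones of the endoplasmic reticulum had 14 of 15 below 0 (median -0.43). None of either list was called.

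Other measures differed between the grey matter libraries too. The microglia markers summed to 13720 and 16470 CPM at 21 months, against 20960 and 17160 CPM at 4 months, with none of the 12 at 0. The 8 red blood cell markers summed to 2647 and 719.8 CPM at 21 months (at most 1 at 0), against 26120 and 1200 CPM at 4 months (none at 0), and the 12 neutrophil markers to 2997 and 2705 CPM, against 5474 and 2788 CPM, with none at 0. The red blood cell and neutrophil sums overlapped between ages, while the microglia sums did not. Each sum was highest in the first 4-month grey matter library. The part of these markers in the chaperone levels was not tested.

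Immediate early genes in grey matter moved less with age. Of the 25, 6 were above 0 and 19 below, with a median log2 fold change of -0.22. Without the first 4-month grey matter library 14 were above 0 and the median was 0.025, so that the direction rests on that library. Both 21-month libraries were below both 4-month ones for 8 of them, Fosb, Jun, Jund, Klf2, Klf4, Klf6, Dusp6 and Rgs1, and above for 1, Egr3, beside 17.3% and 17.2% of all genes. Klf4 had 507.9 and 391.9 CPM at 21 months, against 918.3 and 631.7 CPM at 4 months (log2 fold change -0.79 ± 0.52). Fosb had 3386 and 2807 CPM at 21 months, against 4553 and 3867 CPM at 4 months (-0.44 ± 0.62). Both had an adjusted p of 1 in edgeR.

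In white matter the comparison of 21 with 4 months depends on the myelin-rich library. It shares its 21-month libraries with the comparison of the regions above. With all 8 libraries, 21 of 25 immediate early genes were above 0, with a median log2 fold change of 0.57; without that library the median was 0.05. Heat shock genes were below 0 in 10 of 11 cases with it (median -0.59) and in 11 of 11 without it (median -0.45). No member passed the test either way; edgeR called 0 genes (0%) with all 8 libraries and 1 gene (0.00571%) without that library. With all 8, 1316 genes (8.1%) and 4 members had an unadjusted p under 0.05, and DESeq2 called 369 genes (2.27%) and no member. With the other 4-month white matter library left out instead, edgeR called 25.1% of all genes and 19 members, 17 higher and 2 lower at 21 months. Without that library the 4-month white matter group is 1 library, assumed to vary like the others.

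Among the chaperones, Hsp90aa1 had 218.5 and 142.3 CPM in 21-month white matter, against 632.7 and 320.3 CPM in 4-month white matter. Hsph1 had 207.0 and 87.9 CPM at 21 months, against 333.6 and 319.6 CPM at 4 months. Neither overlapped between ages, with log2 fold changes of -1.40 ± 0.54 for Hsp90aa1 and -1.15 ± 0.62 for Hsph1, and of -0.84 ± 0.44 and -1.12 ± 0.73 without the myelin-rich library. With Hspa8, Hsp90ab1 and Hspd1 they made 5 of the 11 heat shock genes with both 21-month white matter libraries lower, beside 15.4% of all genes. Hspa1a had 557.0 and 253.3 CPM at 21 months, against 319.8 and 897.1 CPM at 4 months: its low 4-month value was in the myelin-rich library, and the log2 fold change was -0.59 ± 0.70 with that library and -1.15 ± 0.63 without it.

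The immediate early genes that stayed highest above 0 without the myelin-rich library were mostly feedback genes. Dusp2, at 36.7 and 27.8 CPM in 21-month white matter, against 4.72 and 15.1 CPM in 4-month white matter, had a log2 fold change of 1.69 ± 0.57 with it and 1.09 ± 0.42 without it. Maff, Ier3, Dusp1 and Ier2 had 0.80, 0.72, 0.64 and 0.61 without it. At the other end, Klf2 had 178.6 and 156.9 CPM at 21 months, against 89.4 and 309.8 CPM at 4 months, and the myelin-rich library had the lowest value of all: the log2 fold change was -0.25 ± 0.56 with it and -0.90 ± 0.26 without it, neither called. With all libraries, 8 immediate early genes had both 21-month libraries above both 4-month ones, beside 19.8% of all genes, namely Junb, Maff, Dusp1, Dusp2, Ier2, Ier3, Zfp36 and Socs3.

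**Figure D5:**
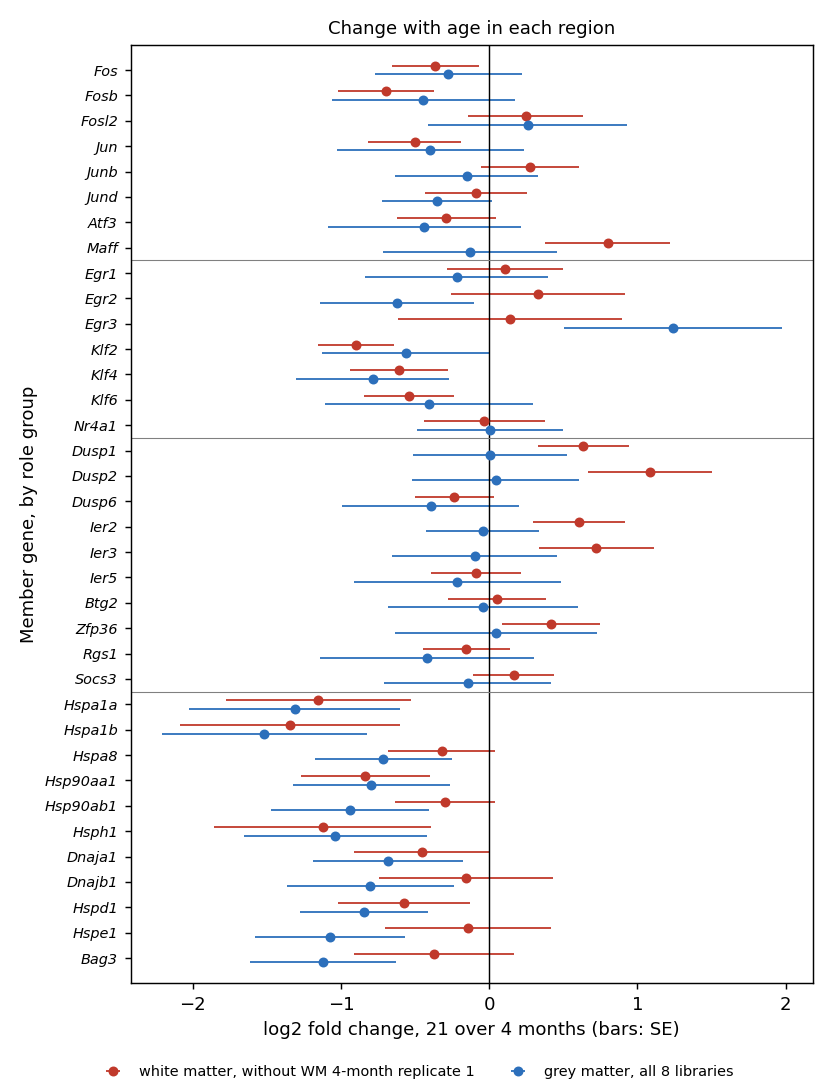
Log2 fold change with age, 21 over 4 months, of each member in white matter (red, without the first 4-month white matter library) and in grey matter (blue, all 8 libraries); points are estimates of edgeR's quasi-likelihood model, bars are SE, and lines separate the role groups. All 11 heat shock genes are below 0 in both regions, with medians of -0.45 in white and -0.94 in grey matter, while the immediate early genes lie on both sides of 0.

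At 4 months, white against grey matter again turned on the myelin-rich library. With it, 1 of 25 immediate early genes was above 0 and the median log2 fold change was -0.58; without it, 10 were above 0 and the median was -0.13. The heat shock genes had a median of -0.56 with it and of -0.38 without it, when 11 of 11 were below 0. Hspa1a had 319.8 and 897.1 CPM in 4-month white matter, against 1454 and 1058 CPM in 4-month grey matter, and Zfp36 had 2194 and 7394 CPM, against 9275 and 8565 CPM; in both, the myelin-rich library was the lowest and the other white matter library lay below both grey matter ones as well. Of the members, 18 had both white matter libraries below both grey matter ones, 11 immediate early and 7 heat shock genes, beside 15.5% of all genes. Egr3 alone was on the other side, beside 13.4% of all genes, at 7.63 and 11.04 CPM in white matter, against 1.05 and 1.83 CPM in grey matter.

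No gene (0%) passed edgeR's test in that comparison, where 1446 genes (8.91%) and 1 member, Egr3, had an unadjusted p under 0.05. DESeq2 called 515 genes (3.17%), with Egr3 the only member (log2 fold change 2.73 ± 0.87, adjusted p = 0.0455); without the myelin-rich library DESeq2 called no member there, and Egr3 had no adjusted p. With the other 4-month white matter library left out, so that only the myelin-rich one stood for the group, edgeR called 23.6% of all genes and 17 members, all lower in white matter.

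The difference between the aging changes of the regions was tested as an interaction, the change with age in white matter minus that in grey matter. With all 8 libraries 32 of 36 members were above 0 and without the myelin-rich library 26 were; none passed the test, and edgeR called 0 genes (0%) in all, with 455 (2.8%) at an unadjusted p under 0.05 and no member among them. DESeq2 called 20 genes (0.123%) and no member. With only the myelin-rich library left for 4-month white matter, edgeR called 13.6% of all genes and 15 members. The feedback genes were above 0 in 10 of 10 cases both with that library (median 0.98) and without it (median 0.33). Dusp2 had 1.64 ± 0.80 with all libraries and 1.03 ± 0.53 without the myelin-rich one (edgeR adjusted p = 1 for both).

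Lists of related genes were read for the 21-month regions, where the test of the 4 libraries alone called 232 genes (1.58%). With all 8 libraries in 1 model, edgeR called no gene of these lists between those regions. With the 4 libraries alone, the NF-kB feedback and early cytokine genes had 16 of 17 tested genes above 0 (median log2 fold change 0.62). Of these genes 4 were called, all higher in white matter. Tnf, whose messenger RNA Zfp36 destabilises, had 699.2 and 675.9 CPM in 21-month white matter, against 177.7 and 279.1 CPM in 21-month grey matter. It rose by a log2 fold change of 1.58 ± 0.21 (edgeR adjusted p = 0.0066). The chemokine genes Ccl3 and Ccl4 rose by 1.05 ± 0.17 and 1.11 ± 0.21 (edgeR adjusted p = 0.0141 and 0.0292). Bcl2a1b, a survival gene with near-identical copies whose reads may be split, rose by 1.00 ± 0.20 (edgeR adjusted p = 0.0363).

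Among 22 tested immediate early genes outside the members, 15 were above 0 and 1 was called, beside 1.58% of all genes. The called gene was Gadd45b, a stress-induced gene of MAP kinase and DNA repair pathways. It had 117.1 and 101.6 CPM in 21-month white matter, against 44.4 and 34.3 CPM in 21-month grey matter, without overlap, and rose by 1.46 ± 0.20 (edgeR adjusted p = 0.00566). Plk2, a stress-induced kinase of the polo family, had 92.2 and 51.2 CPM in white matter, against 29.9 and 10.6 CPM in grey matter, and did not pass (adjusted p = 0.437 in edgeR). The other MAP kinase feedback genes went the other way, with 9 of 9 below 0 (median -0.45) and none called. Spry1, an inhibitor of growth factor signalling, had 9.46 and 15.2 CPM in white matter, against 26.3 and 23.2 CPM in grey matter (log2 fold change -1.02 ± 0.31, edgeR adjusted p = 0.189).

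The chaperone lists had no called gene in that comparison. The 15 chaperones of the endoplasmic reticulum were all above 0 with a median log2 fold change of 0.19; Hspa5, the Hsp70 of that compartment, had 1280 and 947.4 CPM in 21-month white matter, against 893.1 and 779.6 CPM in 21-month grey matter. Of the 33 other cytosolic chaperones 23 were above 0 (median 0.19). Cryab, a small heat shock protein that oligodendrocytes also express, reached 5650 CPM in the myelin-rich 4-month library and 9.69 to 60.0 CPM in the other 7. Of 12 upstream factors, which include the regulators that induce these genes, 5 were above 0 (median -0.03) and none was called.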

How the data were processed

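Polyadenylated RNA of CD11b-selected cells was sequenced on an Ion Proton instrument, per the labels' protocols. The deposited table holds estimated counts per gene made by the authors; between 17.9% and 19.7% of a library's nonzero values had decimals, and all were rounded. The authors also deposited a normalised signal for 18448 genes, used in 1 alternative. The submitters' processing notes name Partek and DESeq2, with no version; aligner, build, annotation and strandedness: not given in the sources used here.

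Genes were kept by filterByExpr, scaled by TMM and fitted with edgeR 4.0.16 (robust quasi-likelihood, R 4.3.3): all 8 libraries with 4 residual degrees of freedom and 5 comparisons (16237 genes), the 21-month libraries alone (14717) and the grey matter libraries alone (15255). A call needs a Benjamini-Hochberg adjusted p under 0.05 over all genes tested. An exact permutation test of 2 against 2 libraries cannot go below 0.333 (two-sided), so none was used. Alternatives were RLE scaling, library size alone, counts without the 2 dominant transcripts, no filter, DESeq2 1.42.0, limma 3.58.1 (voom with quality weights; the normalised signal as log2 of value plus 1), a replicate block and each library left out.

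The members, lists and tests were chosen with earlier results of these data known. Per role group the rule named called members and, with a mean of at least 20 CPM, those with the largest fold changes at 21 months or the highest levels; other members given with values were chosen after they were seen. Promoter windows come from RefSeq (GRCm38.p6), matched by symbol.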

Additional observations from a re-analysis of the deposited data

Results flagged for a closer look

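Dusp1 was picked out because every white matter library was above every grey matter library at 21 months and below every grey matter library at 4 months. It had 3809 and 3501 CPM in white matter, against 3390 and 3262 CPM in grey matter at 21 months, and 1211 and 2331 CPM in white matter, against 3419 and 3210 CPM in grey matter at 4 months. The interaction was 1.04 ± 0.73 on the log2 scale (SE) and did not pass edgeR's test (adjusted p = 1). Without the myelin-rich 4-month white matter library it was 0.63 ± 0.39 (edgeR adjusted p = 1). The value of 1211 CPM is that of this library, and the other 4-month white matter library is below grey matter as well. Groups of 2 are too small for a check of single outlying libraries.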

How the results depend on the processing

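With all 8 libraries, 1 member was called with limma-voom at 21 months between regions, beside 0.696% of all genes. At 4 months between regions 1 was called with no filter (3.39% of all genes) and 1 with DESeq2 (3.17%). With the 21-month libraries alone, 5 were called with no filter (2.63% of all genes), 2 with DESeq2 (2.13%) and 0 with limma-voom (0.992%). The replicate block called 3 members, Maff, Egr2 and Dusp2, beside 3.55% of all genes. No label says that a number pairs libraries; over 6 pairs of groups the correlation of first minus second library ran from -0.141 to 0.415 across all genes and from -0.06 to 0.63 across the 36 members, highest between the 21-month groups, and the block added no call elsewhere. With grey matter alone, 2 were called with no filter, beside 0.13% of all genes. Leaving out 1 library gave 0 to 4 and 0 to 6 called members in these smaller fits and, with all libraries, 0 to 17 at 4 months between regions, 0 to 19 for age in white matter and 0 to 15 for the interaction, the highest each time when the myelin-rich library alone stood for 4-month white matter. The median log2 fold change of the heat shock genes then ran from -0.65 to 0.47 between regions at 21 months, from -0.75 to -0.26 at 4 months and from -1.41 to -0.60 for age in grey matter; that of the immediate early genes for age in grey matter ran from -0.41 to 0.025. With library size alone, 2 members were lower without overlap at 21 months in white matter and 5 were higher in grey matter; that scaling moved the median of all genes to -0.18 at 4 months, 0.29 and 0.13 for age in white and grey matter, and 0.14 for the interaction. Under it the heat shock medians for age were -0.36 in white and -0.77 in grey matter, and the immediate early median in grey matter was -0.05. For age in grey matter, 10 of the 11 heat shock genes were then lower without overlap, and Dnaja1 overlapped. With RLE scaling, 7 immediate early genes were higher without overlap in 21-month white than grey matter, as Btg2 and Rgs1 overlapped. DESeq2 without the myelin-rich library, added after seeing the data, called no member in any of the 5 comparisons. Between regions at 21 months (those libraries alone), leaving out 1 library turned the sign of 18 of 36 members, 10 of the 11 heat shock genes among them; for the members named by rule the range was -0.008 to 0.517 for Atf3, -0.113 to 0.453 for Egr1, -0.149 to 0.241 for Klf6, -1.03 to 0.437 for Hspa1a, -0.181 to 0.468 for Hspa8, -0.83 to 0.213 for Hsp90aa1 and -1.122 to 0.662 for Hsph1. The cause of these shifts was not tested. Of the other values under an alternative, 790 were counted as the same. For single members that meant the same direction and side of the threshold, for counts an equal or near number, and for medians and sums a move below the spread. That spread was 1.11 for the immediate early median in the comparisons that use 4-month white matter. Its large shifts without the myelin-rich library therefore count as the same, and the total is no measure of stability. With 2 libraries a group, the fits leave 4 residual degrees of freedom, or 2 in the smaller fits. The p-values of edgeR also draw on a spread shared across genes, that of Dusp2 included.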
